A study of Drosophila melanogaster with 4 samples.

Results

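The regions described here carried a Gug-eGFP peak in the list of a single biological replicate. They were chosen by measured peak calls: summits of the 4 per-replicate thresholded lists from the major arms (X, Y, 4 and both arms of 2 and 3) were joined when they lay within 200 bp, and a joined region was kept when exactly 1 list held a peak in it. Of 4466 joined regions, 1823 met that rule, 133 from replicate 1, 1248 from replicate 2, 104 from replicate 3 and 338 from replicate 4. A further 853 regions were in 2 lists, 619 in 3 and 1171 in all 4. Chromatin immunoprecipitation followed by sequencing had been done with an antibody against GFP on whole Drosophila melanogaster embryos aged 0 to 24 h. All embryos were of strain Gug-GFP, described in the labels as transgenic, with an insertion targeting Gug. All 4 samples belong to 1 group, and no untreated or control sample was analysed here. Which part of the protein carries the tag and what drives the fusion are not given in the labels.

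Gug (Grunge) is the fly Atrophin, a nuclear co-repressor that is brought to DNA by other proteins, among them orphan nuclear receptors such as Tailless, and that recruits histone-modifying enzymes. It is known for roles in embryonic segmentation, EGFR signalling and planar polarity through Fat. Peaks of such a co-repressor mark DNA that was crosslinked to the fusion protein directly or through partners. A peak list keeps only what passed a threshold, so a region absent from a list may still have had signal below it. Whole embryos mix all tissues and stages, and a weak peak in few cells cannot be told apart from weak occupancy in many.

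The sequences below show what such regions look like: the highest-ranked single-list region of replicates 1, 3 and 4, the highest-ranked replicate 2 region that holds the DREF motif, and the top region of all 4 lists for comparison. Each is the window from 100 bp before to 100 bp after the summit on the plus strand of dm6, read from the RefSeq assembly, and was taken only if it overlapped no annotated untranslated region, which passes over many promoters; windows on 1 of the 7 arms were not considered. Capitals mark matches to DREF (TATCGATA) or the TATA box (TATAAA) on either strand.
Replicate 1 only, near ATbp, chrX:23377750-23377950, plus strand: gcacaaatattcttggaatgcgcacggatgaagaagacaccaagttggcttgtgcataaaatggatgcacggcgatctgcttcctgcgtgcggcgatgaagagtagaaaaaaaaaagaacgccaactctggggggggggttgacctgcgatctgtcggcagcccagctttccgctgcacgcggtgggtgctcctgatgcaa
Replicate 3 only, in Pdp1, chr3L:7863893-7864093, plus strand: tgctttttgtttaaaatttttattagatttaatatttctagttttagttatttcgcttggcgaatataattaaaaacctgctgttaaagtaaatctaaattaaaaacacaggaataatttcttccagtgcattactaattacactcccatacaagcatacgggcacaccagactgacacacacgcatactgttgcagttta
Replicate 4 only, at CG46311, chrX:13563488-13563688, plus strand: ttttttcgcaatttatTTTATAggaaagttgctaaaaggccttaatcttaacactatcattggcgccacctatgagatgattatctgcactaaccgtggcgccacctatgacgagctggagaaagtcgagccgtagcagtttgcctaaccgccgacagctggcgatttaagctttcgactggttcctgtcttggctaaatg
Replicate 2 only with DREF, at modSP, chr3R:16655771-16655971, plus strand: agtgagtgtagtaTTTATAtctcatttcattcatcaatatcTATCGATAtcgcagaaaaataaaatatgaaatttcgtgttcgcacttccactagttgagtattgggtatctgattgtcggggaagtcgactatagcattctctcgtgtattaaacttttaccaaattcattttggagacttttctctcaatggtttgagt
All 4 lists, at CG14100, chr3L:19590537-19590737, plus strand: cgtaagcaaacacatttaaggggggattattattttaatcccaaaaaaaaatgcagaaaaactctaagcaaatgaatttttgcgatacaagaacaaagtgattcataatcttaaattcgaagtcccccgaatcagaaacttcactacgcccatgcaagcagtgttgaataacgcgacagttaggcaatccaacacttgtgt

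The replicate 1 window lay in intergenic DNA 271847 bp from the nearest protein-coding transcription start site (TSS), that of ATbp, and its GC content was 54.2%. The replicate 3 window was in an intron of Pdp1, a PAR-domain bZIP factor of the circadian clock, with 30.8% GC. The replicate 4 window lay 235 bp upstream of CG46311 and held 1 TATA box match, as the capitals show. The replicate 2 window lay 209 bp upstream of modSP, a serine protease of Toll signalling, and held 1 match each to DREF and the TATA box. The window called in all 4 lists, 113 bp upstream of CG14100, held neither motif.

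Replicate 2 supplied most of the single-list regions. They took 33.1% of its 3786 listed peaks (95% Wilson interval 31.6 to 34.6). The share was 6.83% of 1948 peaks for replicate 1, 4.91% of 2117 for replicate 3 and 14.0% of 2450 for replicate 4. Of all single-list regions, 68.5% came from replicate 2, whose list was also the longest. When every list was shortened to its strongest 1948 peaks, 988 regions stayed in 1 list, and replicate 2 held 225 of them against 262, 226 and 275 for replicates 1, 3 and 4. At equal list lengths replicate 2 thus had the fewest, and at the deposited lengths the most. Among regions of 2 lists, the pair of replicates 2 and 3 was the most frequent with 351 regions, and the pair of replicates 1 and 3 the rarest with 13. Intervals given here cover counting error only: regions of 1 list share a library, so they are not replicates. The files hold no read counts, and the depth of the libraries is unknown.

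The rule used the calls, so the ranks below are a description with no test. The authors' signal score was turned into a percentile within each list. Single-list regions had median percentiles of 16.8, 24.7, 10.8 and 19.2 in replicates 1 to 4, and regions of all 4 lists had 67.3, 82.5, 69.0 and 73.5 in the same lists. In each list the single-list median was the lowest of the 3 classes, the others being all-4 regions and those of 2 or 3 lists. The highest single-list region reached percentile 73.2 in replicate 1, 88.9 in replicate 2, 48.1 in replicate 3 and 88.4 in replicate 4. In the stronger 50% of the lists lay 10 single-list regions of replicate 1, 178 of replicate 2, none of replicate 3 and 22 of replicate 4.

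**Figure D1:**
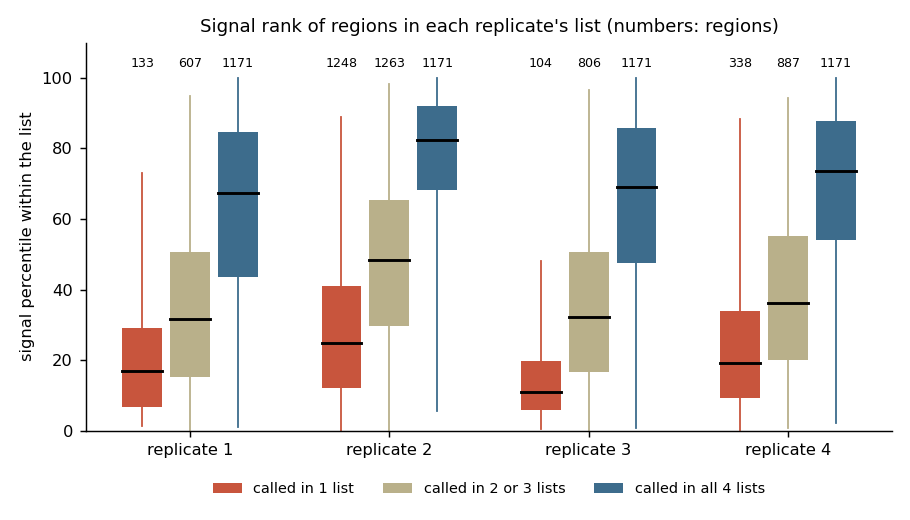
Percentile of the authors' signal score within each replicate's list (vertical axis) for regions called in 1 list, in 2 or 3 lists and in all 4 lists; boxes span the quartiles, black lines are medians, thin lines run from the lowest to the highest region and numbers above are regions. The single-list medians of 10.8 to 24.7 sit under the all-4 medians of 67.3 to 82.5, and replicate 3 alone has no single-list region above 48.1.

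At the joining limit of 200 bp, 4, 18, 3 and 11 single-list regions of replicates 1 to 4 had a summit of another list just past it, up to 300 bp away. Just inside the limit, 37, 99, 35 and 60 peaks of those lists had their nearest summit of another list between 100 and 200 bp away. Most single-list regions stood apart, with no summit of another list within 1 kb in 80.5%, 86.3%, 80.8% and 87.6% of them. A second peak of the same list lay within 1 kb of 18.0%, 19.9%, 15.4% and 10.1%.

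Location split the 4 sets. Within 1 kb of a protein-coding TSS lay 25.6% of the replicate 1 regions (34 of 133, Wilson interval 18.9 to 33.6), 69.9% of the replicate 2 regions (872 of 1248, 67.3 to 72.4), 56.7% of the replicate 3 regions (59 of 104, 47.1 to 65.8) and 28.7% of the replicate 4 regions (97 of 338, 24.1 to 33.7). Replicates 1 and 4 were low and replicates 2 and 3 high. Regions of all 4 lists gave 65.5% to 65.8% in the same lists, and 19.7% of the bases of the arms lie that close to a TSS. Relative to the all-4 regions the difference was -40.1 percentage points in replicate 1, 4.20 in replicate 2, -9.11 in replicate 3 and -36.8 in replicate 4. The mean difference of -20.5 points (SD 21.5, n = 4) gave p = 0.25 in an exact sign-flip permutation test over replicates (2-sided), adjusted to 0.675 over 9 measures, and it did not hold up against the spread. With 4 replicates that test cannot go below 0.13, and the 4 differences share their all-4 regions. Setting replicate 2 against the other 3 has a smallest exact p of 0.25, so those values are given side by side with no test.

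Closer to the start site replicates 2 and 3 were again the higher ones. Within 200 bp of a TSS, the core promoter zone, lay 14.3%, 53.6%, 33.7% and 10.9% of the regions of replicates 1 to 4, against 42.2% to 43.8% of the all-4 regions and 5.0% of the arms. The mean difference was -14.9 points (SD 19.2, n = 4; exact sign-flip permutation p = 0.375, adjusted 0.675). Median distances to the nearest TSS were 3517 bp, 153 bp, 651 bp and 2718 bp, and 321 bp for the all-4 regions. Of the summits within 200 bp, 80.3% in replicate 2 (537 of 669) and 87.6% in the all-4 regions (444 of 507) were upstream of the start, with median positions of -34 and -76 bp. Far regions, over 20 kb from any protein-coding TSS, made up 17.3% of the replicate 1 set and 1.52% to 7.40% of the other sets.

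**Figure D2:**
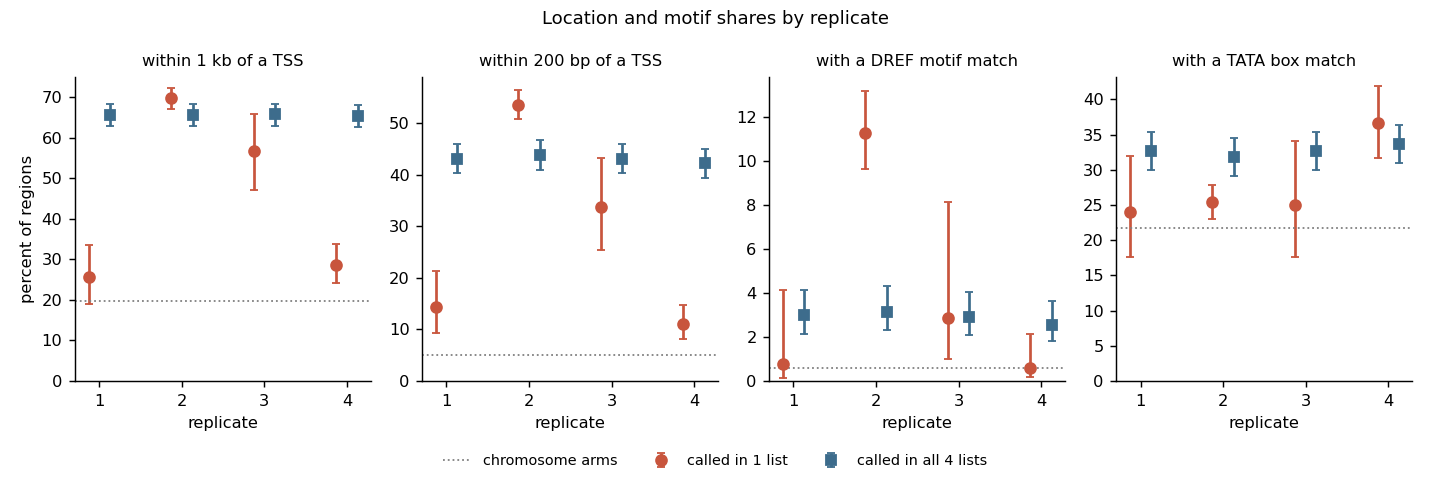
Percent of regions (vertical axes) within 1 kb and within 200 bp of a TSS and with a DREF or TATA box match, by replicate, for regions of 1 list (circles) and of all 4 lists at the same replicate's summits (squares); bars are 95% Wilson intervals and dotted lines the value over all bases (distances) or all windows of equal width (motifs) of the arms. Replicate 2 stands at 69.9% within 1 kb and 11.3% with DREF, and replicates 1 and 4 at 25.6% and 28.7% within 1 kb.

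Many Drosophila promoters come as pairs that fire in opposite directions. Among summits within 200 bp of a TSS, 37.7% of the replicate 2 regions (252 of 669, interval 34.1 to 41.4) also had start sites of different genes on both strands within 500 bp, and 50.9% of the all-4 regions did (258 of 507, 46.5 to 55.2). The sets of replicates 1, 3 and 4 held 2 of 19, 10 of 35 and 16 of 37 such regions. The intervals of replicate 2 and the all-4 regions did not overlap, but they leave out the spread between replicates, and the pairing window was chosen after the data had been seen.

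Gene parts varied among the sets as well. Introns held 45.1%, 35.7%, 44.2% and 50.6% of the regions of replicates 1 to 4, and 43.7% to 44.2% of the all-4 regions. Intergenic DNA held 42.9%, 47.1%, 42.3% and 44.4%, and 43.8% to 44.6% of the all-4 regions. 5' UTRs held 5.26%, 14.6%, 7.69% and 3.55%. Coding exons held 7, 13, 4 and 1 regions, or 5.26% (interval 2.57 to 10.5), 1.04%, 3.85% and 0.296%, against 0.427% to 0.512% of the all-4 regions. They make up 16.3% of the bases of the arms. None of the 3 tested classes differed beyond the spread: exact sign-flip permutation p was 0.25 for coding exons, 1.0 for introns and 0.875 for intergenic DNA, adjusted to 0.675, 1.0 and 1.0.

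By chromosome, the X carried 33.1% of the replicate 1 regions (44 of 133, interval 25.7 to 41.5) and 21.3%, 14.4% and 14.5% of those of replicates 2, 3 and 4. It carried 21.5% of the all-4 regions and makes up 17.1% of the arms' length. Of the 44 X-linked regions of replicate 1, 15 lay past 21 Mb, toward the centromere, a limit set after the data had been seen; that stretch is 1.85% of the arms' length. Those 15 regions had a mean GC content of 52.8% ± 7.93 (SD over regions), and without them 24.6% of the replicate 1 set lay on X. No region of replicates 1 or 2 lay on chromosome 4, 1 of replicate 3 and 4 of replicate 4 did, and none of the 4 sets had any on Y; a count of 0 allows up to 2.26%, 0.24%, 2.88% and 0.888% of the regions of replicates 1 to 4 (3 counts). The summit was inside an annotated mobile element in 4, 4, 3 and 2 regions of replicates 1 to 4, or 3.01%, 0.321%, 2.88% and 0.592%. The share was 0.171% in the all-4 regions, and such elements make up 5.39% of the arms. A small RNA gene lay within 200 bp in 2 of 133, 3 of 1248, 4 of 104 and 2 of 338 regions. Of the all-4 regions, 1 of 1171 had such a gene that near. These small counts carry no test.

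Base composition followed another order than location. Mean GC content within 100 bp of the summit was 44.0% ± 8.89 (SD over regions) in replicate 1, 40.4% ± 6.65 in replicate 2, 41.1% ± 8.72 in replicate 3 and 35.6% ± 6.64 in replicate 4. The all-4 regions had 38.2% ± 6.24 and the arms 42.1%. Replicate 1 was thus the highest and replicate 4 the lowest, although both sets were mostly far from start sites. In replicate 1, 22.6% of the windows were over 50% GC, and in replicate 4, 51.8% were below 35%. Over the replicates the difference from the all-4 regions averaged 1.89 percentage points (SD 3.16, n = 4; exact sign-flip permutation p = 0.375, adjusted 0.675), since 3 differences were above 0 and that of replicate 4 was -2.18. Without the 15 regions past 21 Mb on X, the replicate 1 mean was 42.9%.

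**Figure D3:**
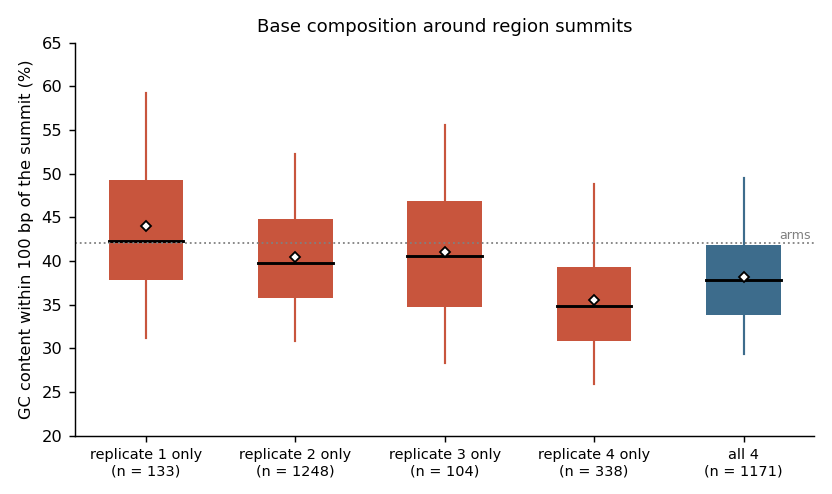
GC content within 100 bp of region summits (vertical axis, starting at 20%) in the 4 single-list sets and the regions of all 4 lists; boxes span the quartiles, black lines are medians, diamonds are means and thin lines run from the 5th to the 95th percentile. The means run from 35.6% in replicate 4 to 44.0% in replicate 1, on either side of the 38.2% of the all-4 regions.

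DREF is a factor that binds TATCGATA at promoters of genes used in most dividing cells. The motif was in 11.3% of the replicate 2 windows (141 of 1248, interval 9.66 to 13.2), and in 1 of 133, 3 of 104 and 2 of 338 windows of replicates 1, 3 and 4, or 0.752%, 2.88% and 0.592%. The all-4 regions gave 2.56% to 3.16% in the same lists. Of all 681615 adjoining windows of that width on the arms 0.568% held it, of 19275 windows centred on protein-coding start sites 6.44%, and of all joined regions 5.69%. The mean difference over replicates was 0.978 percentage points (SD 4.87, n = 4; exact sign-flip permutation p = 1.0, adjusted 1.0), because replicate 2 was above its all-4 regions by 8.14 points and the other 3 were at or below theirs.

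DREF shares were also compared at like distances from start sites. Within 200 bp of a TSS, 19.7% of the replicate 2 regions held DREF (132 of 669, interval 16.9 to 22.9), against 5.92% of the all-4 regions (30 of 507, 4.18 to 8.32). Replicates 1, 3 and 4 had few regions there, with DREF in 1 of 19 (5.26%), 2 of 35 (5.71%) and 1 of 37 (2.70%). Beyond 1 kb the shares were 1.06% in replicate 2 and 0.249% in the all-4 regions. At paired start sites 20.2% of the replicate 2 promoter regions held DREF and at other start sites 19.4%. The nearest match lay a median of 26.5 bp from the summit in replicate 2, and 48.5 bp in the 32 all-4 regions with a match. A match is a description of the letters and does not show that DREF was bound.

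Other promoter motifs also varied among the sets. The M1BP core GGTCACAC, read by the pausing factor M1BP, was in 0.752%, 4.81%, 1.92% and 1.18% of the windows of replicates 1 to 4, in 1.96% of the all-4 regions and in 5.68% of start site windows. The TATA box TATAAA, the core promoter element bound by TBP, was in 24.1%, 25.4%, 25% and 36.7%, against 31.8% to 33.6% of the all-4 regions and 21.8% of all windows of the arms. Replicate 4 was the only set above its all-4 regions, by 3.04 points, and it was also the lowest in GC; what part composition has in this was not tested. Read within 150 bp of the summits, its share was 42.0% against 42.4%, so this direction turned, at -0.43 points. For TATAAA the mean difference was -4.88 points (SD 5.35, n = 4; exact sign-flip permutation p = 0.25, adjusted 0.675). Within 200 bp of a TSS, TATAAA was in 4 of 19, 142 of 669, 8 of 35 and 13 of 37 windows of replicates 1 to 4. These were 21.1%, 21.2%, 22.9% and 35.1%, against 36.5% of the all-4 regions there (185 of 507). GAGAGA, bound by GAGA factor, was in 13.5%, 9.54%, 9.62% and 11.8% (p = 0.875 by the same exact test, adjusted 1.0).

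The homeodomain core TAATTA was in 9.77%, 12.9%, 12.5% and 20.1% of the windows, and the run AAAAAAAA in 14.3%, 13.1%, 14.4% and 19.2%, both highest in replicate 4. The all-4 regions had 15.1% and 12.8%, and the windows of the arms 12.5% and 10.5%. Both motifs hold only A and T, and replicate 4 was the lowest in GC. The part of composition in this was not tested. Of motifs for factors linked to Gug or patterning, the Tailless letters AAGTCA were in 12%, 9.62%, 7.69% and 9.47%, and the nuclear receptor half-site AGGTCA in 4.51%, 3.53%, 5.77% and 3.55%. The all-4 regions had 9.56% and 3.84% of these, and the windows of the arms 10.7% and 5.45%. The Zelda motif CAGGTAG was in 1, 11, 0 and 5 windows, or 0.752%, 0.881%, 0% and 1.48%, against 0.769% of the all-4 regions and 1.09% of the windows of the arms. A CA repeat (CACACACA) was in 6.02%, 4.33%, 2.88% and 2.66%, against 3.59% and 4.02%. The Grainy head letters AACCGGTT were in 4 windows of replicate 2 (0.321%) and in none of the other 3 sets, against 0.342% and 0.186%. The Pleiohomeotic core GCCAT was in 24.8%, 33.0%, 27.9% and 22.8%, the Scalloped letters CATTCC in 6.77%, 6.81%, 8.65% and 7.40%, and the Ets core CCGGAA in 8.27%, 4.09%, 4.81% and 2.37%. For these 3 the all-4 regions had 29.4%, 7.17% and 3.84%, and the windows of the arms 35.2%, 9.44% and 6.08%. GGTCACAC and the motifs of this paragraph were searched on both strands, like the others, and carry no test.

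Single-list regions were weaker than shared ones, so location and DREF were also set side by side within 4 equal bins of each list by signal. In replicate 2, 61.8%, 74.7%, 85.8% and 93.8% of the single-list regions of bins 1 (weakest) to 4 lay within 1 kb of a TSS, against 46.5%, 55.6%, 64.4% and 75.8% of the regions that another list shared. DREF was in 10.3%, 9.79%, 16.7% and 37.5% of the former, the last of only 16 regions, and in 1.55%, 3.09%, 5.09% and 4.98% of the latter. In each bin of the replicate 2 list the single-list regions were thus higher in both. Replicate 1 went the other way in its 3 filled bins, with 26.7%, 27.3% and 1 of 10 within 1 kb against 55.7%, 53.3% and 56.2%. Replicate 4 had 32.2%, 21.3% and 33.3% in its first 3 bins against 59.1%, 58.9% and 58.7%. In replicate 3 the single-list values of 55.8% and 61.1% were near the 61.4% and 61.6% of its shared regions.

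**Figure D4:**
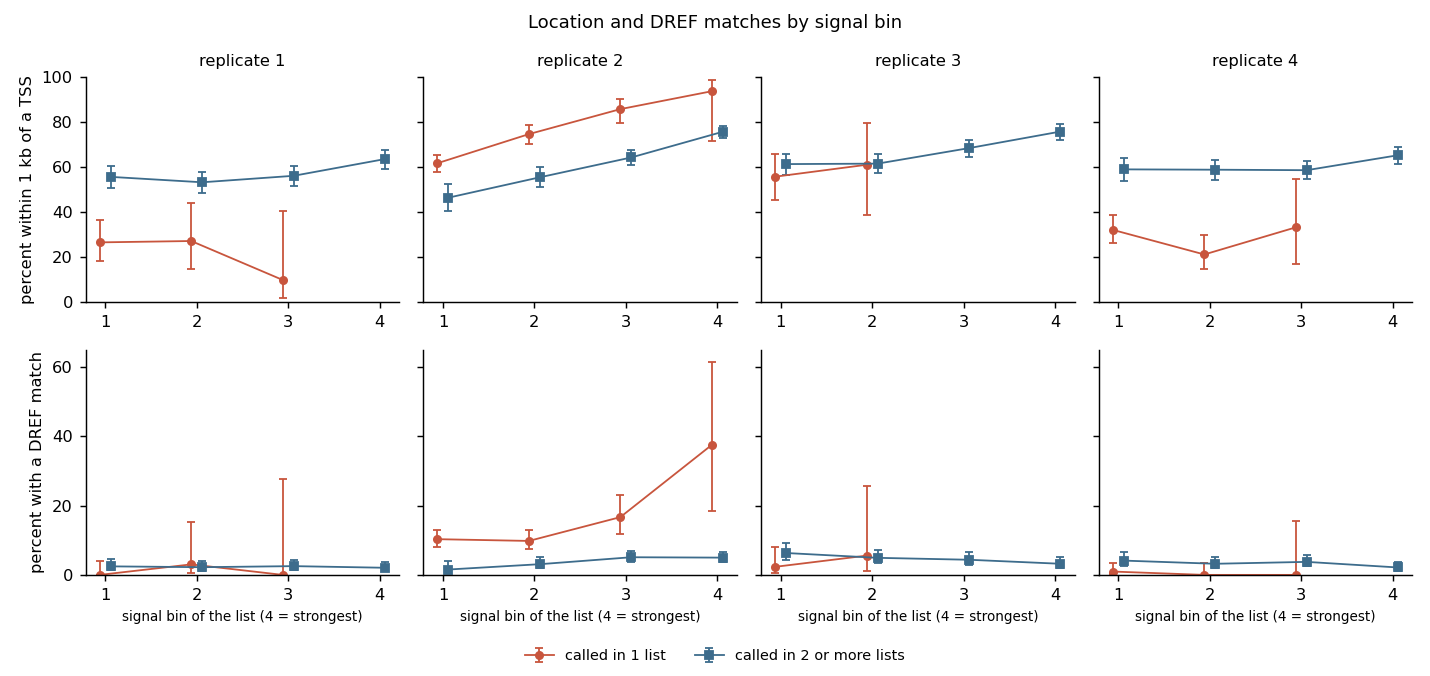
Percent of regions within 1 kb of a TSS (top) and with a DREF match (bottom) by signal bin of each replicate's list (horizontal axis, 4 equal bins, 4 is the strongest), for regions called in that list alone (circles) and in at least 1 other list (squares); bars are 95% Wilson intervals and points of under 10 regions are left out. In replicate 2 the circles lie above the squares in all 4 bins, and in replicates 1 and 4 they lie below them in the top row.

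Most single-list regions had a summit below the threshold in other replicates. The longer ranked lists of 32752 to 49135 peaks, which keep peaks below the threshold, held a summit of at least 1 other replicate within 200 bp of 96.2% of the single-list regions (1753 of 1823), and summits of all 3 others at 53.3% (972). No other ranked list had one at 70 regions, 5, 43, 6 and 16 for replicates 1 to 4. Among all ranked peaks that were not in a thresholded list, 55.0% to 64.6% had a summit of another replicate that near, and 9.03% to 12.6% had all 3. Those peaks had not passed the threshold, and the comparison was not matched for signal rank. Each single ranked list covers 9.39% to 14.0% of the arms at that distance. The ranked lists share their alignments with the thresholded ones, so these values describe what the rule left out.

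Where another ranked list held the region, its signal ranked high there, but mostly outside the ranks that the thresholded list's length spans. Over the 12 ordered pairs of replicates, 69.2% to 85.2% of the regions were found, at median percentiles of 82.1 to 92.0 of the ranked signal. The replicate 2 regions were found in 72.2%, 85.0% and 75.9% of cases in the ranked lists of replicates 1, 3 and 4, at median percentiles of 86.0, 90.0 and 83.8. Only 28, 64 and 54 of the 1248 had a rank there within the length of the thresholded list. The median deposited -log10 IDR of the matched peaks was 0.226, 0.460 and 0.398. A higher -log10 IDR means better rank agreement, and the lists were cut at a score of 830 out of 1000, which is an IDR of 0.01.

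The replicate 2 regions differed by how many other ranked lists held them. With 0, 1, 2 and 3 other lists, 90.7%, 75.4%, 73.6% and 65.1% of 43, 171, 364 and 670 regions were within 1 kb of a TSS. The DREF share was 30.2%, 17.5%, 14.0% and 7.01% in that order. Of the 141 replicate 2 regions with DREF, 47 had summits in all 3 other ranked lists.

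**Figure D5:**
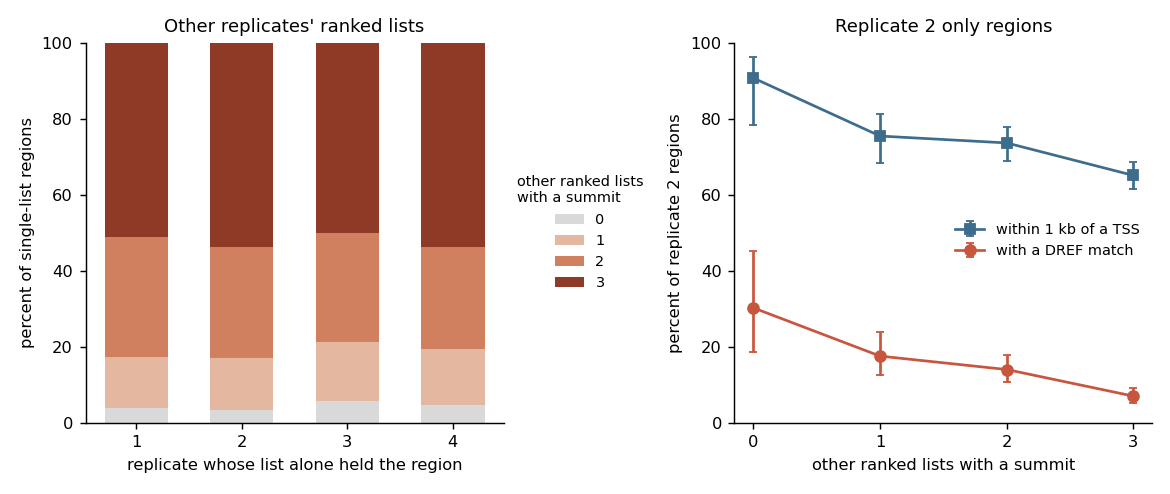
Left, percent of the single-list regions of each replicate (vertical axis) with a ranked summit of 0, 1, 2 or 3 other replicates within 200 bp; right, for replicate 2 regions, the percent within 1 kb of a TSS (squares) and with a DREF match (circles) by that number, with 95% Wilson intervals. The left bars are alike across replicates, with 50% to 53.8% of regions in all 3 others, and on the right DREF runs from 30.2% down to 7.01%.

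The series-level conservative peak set, made by the authors from all 4 alignments, enclosed 6.77%, 47.0%, 36.5% and 10.9% of the single-list summits of replicates 1 to 4, and 98.7% of the all-4 regions. Replicates 2 and 3 were thus high and 1 and 4 low, as for promoters. The largest series-level set enclosed 60.9%, 64.8%, 53.8% and 59.5%, and 99.0% of the all-4 regions. Leaving the replicate 2 list out of the joining raised the regions of replicate 3 alone to 461, with 68.8% within 1 kb of a TSS and 7.81% with DREF, against 64.9% and 2.84% for the regions of the remaining 3 lists.

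The strongest replicate 2 regions sat at promoters. The first was 63 bp upstream of msl-1 (FBgn0005617, chr2L:18688800-18688957), which encodes a scaffold of the dosage compensation complex of the male X, at percentile 88.9 of the replicate 2 list. Its ranked percentile was 94.9 in replicate 1 and 54.7 in replicate 4, and the replicate 3 ranked list had no summit there. Chd1, a chromatin remodelling ATPase, followed at percentile 78.7 with a summit 42 bp upstream, and none of the other 3 ranked lists held that region. A separate region within 1 kb of a Chd1 TSS was in 2 or more lists. Creld, an endoplasmic reticulum protein (percentile 78.3), and Set, a histone chaperone (77.5), had summits 38 and 41 bp upstream with a DREF match. CG15356 (78.3) and STUB1, a ubiquitin ligase that works with chaperones (77.5), had none. All 6 lay 38 to 63 bp upstream of the start.

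The 4 strongest replicate 1 regions were GC-rich. The first 3 lay on X at 271847 bp from ATbp, 83491 bp from DIP1, which encodes a double-stranded RNA binding protein, and 70924 bp from CG14621, with GC contents of 54.2%, 56.7% and 59.7%. They stood at percentiles 73.2, 70.1 and 59.6 of the replicate 1 list. The ATbp region was at ranked percentiles of 95.1, 95 and 89.5 in replicates 2 to 4, whereas none of those lists held the DIP1 region. A coding exon summit of 58.2% GC followed, 2272 bp upstream of CG3860, the nearest start (59.1). Which gene holds that exon was not checked. Then came ogre, a gap junction innexin (324 bp, 57.1, with 35.8% GC), and AdamTS-B, a secreted metalloprotease (1616 bp, 55.0).

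The replicate 3 set was the weakest of the 4. Its leading region was in the Pdp1 intron printed above, at percentile 48.1 and 3376 bp from the TSS. RYBP, a Polycomb partner (42.0), CG8517 (41.2), CG12868 (39.0), rdgBbeta, a lipid transfer protein (37.9), and Ptpmeg, a tyrosine phosphatase (32.2), followed. Their GC contents of 27.4% to 36.3% were below the set's mean of 41.1%. The RYBP, CG8517 and Ptpmeg regions had summits in all 3 other ranked lists, at percentiles of 85.9 to 96.1, and the CG12868 region in none.

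The replicate 4 set was led by a 3' UTR summit 9577 bp from the TSS of Cals, the fly calsyntenin, on chromosome 4 at percentile 88.4. No other ranked list held it. CG46311 (68.2), S (Star, which carries EGFR ligands through the secretory pathway, 67.2), Ca-beta, a calcium channel subunit (65), Btk, a Tec family kinase (63.5), and Fur1, a furin protease (62.7), followed. These 5 had summits in all 3 other ranked lists. The intronic summits nearest to the starts of S, Ca-beta, Btk and Fur1 lay 5443, 10667, 2127 and 26849 bp away.

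Some genes were nearest to many single-list regions. ATbp had 15, of which 11 were from replicate 1, 3 from replicate 3 and 1 from replicate 2, spread from 27 to 426358 bp from its start at a mean GC of 53.2% ± 8.10 (SD over regions). Antp, a Hox gene of the thorax, had 6, 4 from replicate 2 and 2 from replicate 4, at 3415 to 29469 bp. CG40228 had 6, 4 of them from replicate 4, at a mean GC of 30.6%. CG6163, Mef2, a muscle transcription factor, and Myc, a growth regulator, had 5 each, 4 of each from replicate 2; shn and tou also had 5 and were left out by name order. At ATbp 6 further regions were in 2 or more lists, at Mef2 and Myc 3 each, and at Antp 2.

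Within 1 kb of a TSS, 1422 of 13968 protein-coding genes (10.2%) had a single-list region, and 80.4% of those had no region of 2 or more lists. Replicate 2 regions reached 1215 genes (8.7%), the other 3 replicates together 231 (1.65%), and regions of all 4 lists 1095 (7.84%). Regions of 2 or more lists reached 2216 (15.9%). Without the replicate 2 list 860 genes had a single-list region, with lists of equal length 725 and in the stronger 50% of the lists 806. These shares are the background for the gene lists below, which were chosen with earlier results known and carry no test.

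Genes of the protein synthesis machinery were above that background in the replicate 2 set and also among regions of 2 or more lists. Cytosolic ribosomal protein genes had a replicate 2 region at 19 of 88 (21.6%), and a region of all 4 lists at 13 (14.8%). RpL23 was the strongest at percentile 73.4, and RpL36 (58.7, 4 bp from its start) held a DREF match. RpS14b (55.7), of a pair of near-identical neighbouring genes between which reads could be split, and RpL27A (51.5) followed. Mitochondrial ribosomal protein genes had one at 15 of 73 (20.5%), led by mRpL17 (76.1), mRpS29 (71.7, with DREF), mRpL21 (59.7) and mRpL11 (58.1), and a region of all 4 lists at 8. Regions of replicates 1, 3 and 4 were at 2 and 1 genes of these lists. Regions of 2 or more lists were at 37 cytosolic (42.0%) and 16 mitochondrial genes (21.9%), against 15.9% of all genes. RpL23 was among these 37, and the RpL27A region was also the one counted for mRpL27.

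Trithorax group and remodeller genes, which keep genes active or move nucleosomes, had a replicate 2 region at 8 of 18 (44.4%), against 8.7% of all genes. A region of all 4 lists was at 4 genes of the list (22.2%, against 7.84%), and the other 3 replicates alone gave none. Of the genes with a replicate 2 region, Chd1 (78.7), Iswi (75.8, with DREF), kis (42.0) and lolal (19.8) led, with summits 25 to 49 bp from their starts. Regions of 2 or more lists were at 6 of the 18 genes (33.3%, against 15.9%), Chd1 and lolal among them. At Iswi the ranked percentile was 25.5 in replicate 1, 92.5 in replicate 3 and 85.3 in replicate 4. Co-repressors and Polycomb group genes had a single-list region at 1 of 21 (4.76%), against 10.2% of all genes. It was at G9a, a histone methyltransferase (replicate 2, percentile 40.5). A region of all 4 lists was at 7 of the 21 (33.3%), against 7.84% of all genes. Insulator and promoter factors had 2 of 14 in any single list (14.3%), against 10.2% of all genes. These were Dref itself in replicate 2 (percentile 28.5) and CTCF in replicate 1 (percentile 14.3). The summit at Dref lay 70 bp from its start, with no DREF match in the window. The Dref region was also the one counted for RpL13, and that of the remodeller gene Snr1 the one for mRpL44.

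Signalling lists were read against the 10.2% for any single-list region. The EGFR pathway had 2 of 20 genes, spi, a ligand (replicate 2, 45.8), and rho, the protease that releases such ligands (replicate 4, 7.39). Of 20 genes for planar polarity, Fat and Hippo signalling 5 had one: wts, the Hippo pathway kinase (replicate 2, 52.8, with DREF), stan (replicate 1, 35.1), pk (replicate 1, 32.3), sav (replicate 2, 26.3) and fz. The Notch pathway had 6 of 22 (27.3%), led by Su(H), its DNA-binding effector (replicate 2, 61.4, with DREF), E(spl)m7-HLH (replicate 4, 48.1), neur (replicate 2, 44.1) and mam (replicate 2, 36.2). Nuclear receptors had 2 of 21, eg (replicate 4, 28.0) and EcR, the ecdysone receptor (replicate 2, 9.54). The Dpp and dorsoventral list had 5 of 24 (20.8%), led by ush (replicate 2, 39.8), shn (replicate 1, 24.9), brk (replicate 2, 18.5) and Mad (replicate 1, 15.1). Segment polarity genes had 2 of 19, fz (15.6) and smo (6.92), both in replicate 2. Of the genes named in this paragraph, spi, mam, ush, shn, brk and Mad also had a region of 2 or more lists within 1 kb of a TSS. Regions of 2 or more lists were at 45%, 35%, 36.4%, 28.6%, 25% and 10.5% of these lists in the order given, against 15.9% of all genes. Each list thus had at least as many genes with such a region as with a single-list region.

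Patterning and tissue marker lists lay on both sides of the 10.2%. Pair-rule genes had 1 of 9 (11.1%), hry, the repressor hairy (replicate 3, 11.9), and gap genes 0 of 13 and Hox genes and cofactors 0 of 12. Neural markers had 3 of 22 (13.6%), pros (replicate 4, 13.8), insc (replicate 2, 4.65) and brat (replicate 2, 3.46). Muscle markers had 3 of 21 (14.3%), Tm1 (replicate 2, 29.3), htl (replicate 4, 28.7) and Mef2 (replicate 2, 25.1). Haemocyte and fat body markers had 2 of 13 (15.4%), ush and Hml (replicate 2, 17.0), germline markers 1 of 13 (7.69%), gcl (replicate 2, 7.42), and heat shock and chaperone genes 2 of 12 (16.7%), Hsp68 (replicate 2, 69.0) and stv (replicate 2, 13.6). Cuticle and Osiris genes had 2 of 112 (1.79%), Osi24 (replicate 4, 20) and Cpr64Ad (replicate 1, 2.98). Odorant and gustatory receptors had 0 of 119, and chorion and Jonah protease genes 0 of 26. The genes brat, ush and stv also had a region of 2 or more lists within 1 kb of a TSS. Such regions were at 9.09% of the neural, 9.52% of the muscle and 7.69% of the haemocyte and fat body markers. For germline markers and heat shock and chaperone genes the shares were 23.1% and 50%, against 15.9% of all genes.

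The Gug gene itself (chr3L:8449922-8472669) had 2 single-list regions in introns, one of replicate 2 at percentile 6.89 and one of replicate 4 at 2.61. Both had ranked summits in other replicates, the replicate 2 region in replicates 1 and 4 and the replicate 4 region in replicates 1, 2 and 3. Within 20000 bp of the gene lay another 2, one of replicate 2 in an intron nearest the start of CG6983 (25.6) and one of replicate 4 in the 5' UTR nearest that of Unr (6.16).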

How the data were processed

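The samples were 4 biological replicates of 1 group. Per the README deposited with each sample, the authors made a thresholded and a longer ranked peak list on dm6 from each replicate's own alignment and further inputs of unstated role, and series-level lists from all 4 alignments. Which aligner and peak caller were used is not given in the sources used here. The deposited lists hold the authors' signal score per peak, a -log10 q-value and an IDR (irreproducible discovery rate) score scaled to 1000; ranked lists add a -log10 IDR per peak. The authors' signal was used only to rank peaks within a list. All listed peaks lie within the dm6 arm lengths of the reference used. Nothing in the labels says more of the replicates than that they are biological, so p-values measure the spread between these 4 samples. Lists hold no counts, and depth is unknown.

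Summits were joined at 200 bp; the median summit gave a region's position, counted from 1. Genes came from Ensembl release 115 (13968 protein-coding genes), and a summit in several gene parts went to the 5' UTR first, then the coding exon, the 3' UTR and the intron; sequence came from RefSeq. GC content and 14 motifs were read within 100 bp of summits. Of 22 gene lists 712 places were matched to genes, 7 through an older name, and 4 names were not matched; 3 symbol patterns were corrected after matching because they caught genes outside the family. The 9 measures were tested by exact sign-flip permutation over replicates (2-sided, threshold 0.05) with Benjamini-Hochberg adjustment. Members and lists were chosen with earlier results of these data known. The text names, per replicate, the 6 single-list regions of highest signal percentile by nearest gene, the 6 genes nearest to most such regions, up to 4 members of each list, and Gug; others are named where a count is small. The sequences shown follow the same ranks, and 1 further sequence is not reported here. The steps were tested on simulated data. Python 3.11.15, pandas 2.3.3, NumPy 2.4.6, SciPy 1.17.1 and matplotlib 3.10.9 were used. Alternatives covered joining distance, list length, list parts, left-out replicates, windows, start site set and comparison set. Peaks off the 7 arms and other series-level lists were not used, except that off-arm peaks are counted below.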

Additional observations from a re-analysis of the deposited data

Results flagged for a closer look

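One of 19 sets of 4 replicate values had a sample far from the others by Dixon's ratio, which chance gives in about 1 of 20. The share of windows with the TATA box letters TATAAA was 36.7% in the replicate 4 regions, against 24.1%, 25.4% and 25% in replicates 1, 2 and 3 (ratio 0.894). Within 150 bp of the summits the shares were 42.0% in replicate 4 against 35.3%, 37.5% and 37.5%. The same set had the lowest GC content, 35.6%, and 71.3% of its regions lay over 1 kb from a TSS, where 36.5% held the letters. The part of base composition in this share was not tested.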

How the results depend on the processing

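Of 162 recomputed values, 129 kept their direction or moved little, 16 moved further and 17 changed sign, all of the latter in the GAGAGA, intergenic and intron differences, reported as -0.207, -0.0923 and -0.124 points; the cause was not tested. Lists of equal length gave 988 single-list regions and 225 of replicate 2, and the stronger 50% of each list 798 and 587; fewer peaks entered both. The share inside the conservative set was 77.4% in the stronger 50%, against 36.8%. The share with another ranked summit was 98.1% with equal lengths, 99.0% in the stronger 50%, 93.4% at 100 bp and 97.8% at 400 bp, and 90.7% to 95.1% with a replicate left out. The difference in GAGAGA became 0.555 points at a 100 bp joining distance, 0.291 with equal lengths, 1.91 in the stronger and 2.56 in the lower 50% of the lists, and -0.399 to 0.744 with a replicate left out. The intergenic difference became 0.174 at 400 bp, 1.57 with equal lengths, 0.443 and 2.62 in the stronger and lower 50%, 0.0998 without peaks of -log10 q below 1, and -0.550 to 2.40 with a replicate left out. The intron difference became 0.274 in the stronger 50% and -2.43 to 1.32 with a replicate left out. By replicate, the share within 1 kb of a TSS kept its sign against the comparison regions in all 13 alternatives for replicates 1, 2 and 4, from 0.370 to 23.9 points in replicate 2, and in 10 for replicate 3; it was above them there without replicate 2 and in the stronger and the lower 50% of the lists. GC content kept its sign in all 12 for each replicate, and DREF in all 11 for replicate 2, from 6.80 to 15.6 points. The comparison with regions of at least 2 lists, the lower 50% and the values for percentile, series-level sets and genes were added after the data had been seen. No paired analysis was possible because all samples form 1 group, so no replicate numbers pair groups; the sign-flip test compares sets of regions within each replicate. Unknown depth limits all comparisons between lists, since a longer list may come from a deeper library, which was not tested.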

Other observations

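Peaks off the 7 arms were joined by the same rule and gave 167 regions, of which 81 were in 1 list and 26 in all 4. By replicate, 30, 4, 9 and 38 of those 81 belonged to replicates 1 to 4, from 95, 55, 77 and 110 listed peaks. Replicate 2 thus had the fewest off the arms and the most on them.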
